A study of Mus musculus with 12 samples.

Results

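The chemokine CXCL12 and its receptors CXCR4 and ACKR3 were described in bulk RNA-seq of mouse back-skin scars. The 3 genes *Cxcl12*, *Cxcr4* and *Ackr3* were selected by symbol out of 35976 genes listed, and the set was chosen because *Cxcr4* was higher with traction and differed by genotype. The values that chose the set are those of *Cxcr4* in every comparison, which are therefore given as a description with no test. *Cxcl12* and *Ackr3* came in as its ligand and as the other receptor of that ligand, and were tested. All 3 genes were among the 18853 genes that passed the filter on low counts.

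Scars came from 4 groups of 3 male mice on a C57BL/6 J background, aged 8 to 12 weeks. All mice received a split wound of 1.5 cm in the back skin and, 6 days later, a plastic device on the wound. In the traction groups the device was lengthened by 1 mm a day until it had gained 8 mm, whereas mice of the sham groups wore it without lengthening. Each treatment was given to *Tem1*WT/WT mice and to *Tem1*lacZ/lacZ mice, in which *lacZ* takes the place of the single exon of *Tem1* (listed as *Cd248*) in all cells of the body. The groups are named WT sham, WT traction, lacZ sham and lacZ traction below.

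CXCL12 is a chemokine made mainly by stromal and endothelial cells, and it draws in and retains cells that carry CXCR4. CXCR4 is a G protein-coupled receptor found on most leukocytes and on the tip cells of growing vessels, and it signals through inhibitory G proteins. ACKR3 binds CXCL12 with high affinity but recruits arrestin instead of G proteins, and it takes the ligand up and degrades it.

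The libraries held 41536788 to 64644293 counts each. *Cd248* had 0 to 13 counts in the 6 lacZ libraries, against 3883 to 16413 in the 6 WT libraries. Replicate 1 of the WT traction group stood apart by its neutrophil genes. The summed level of 10 neutrophil markers was 6990 CPM in that library, while the other 11 libraries lay between 62.6 and 623. Values without that library are given for *Cxcl12* and *Cxcr4* with traction, and for pathway and marker genes whose call or size depended on it. Levels are CPM, the counts of a gene relative to the size of its library, with the sizes scaled by TMM. A gene is said to have passed the test when its adjusted p, by the Benjamini-Hochberg method over the 18853 genes, was under 0.05 in edgeR's quasi-likelihood test of all 4 groups. The scars are bulk tissue, so that fewer cells of a type and less RNA per cell cannot be told apart.

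All 3 genes matched an entry in the RefSeq promoter set of GRCm38.p6, and the 250 bases before each start are printed because the factors listed for these genes include hypoxia-inducible factors and Nrf1. *Cxcl12* lies on chromosome 6 from 117168535 to 117181368 on the plus strand, *Cxcr4* on chromosome 1 from 128588199 to 128592299 on the minus strand, and *Ackr3* on chromosome 1 from 90203980 to 90215724 on the plus strand. Each sequence runs 5′ to 3′ on the strand of its gene and ends at the base before the start. Capitals mark matches, on either strand, to GCGTG and ACGTG (the core of the hypoxia response element), GCATGCGC (a part of the Nrf1 site), GGGCGG (the GC box) and TATAAA (the TATA box).
Cxcl12, chr6:117168285-117168534, plus strand: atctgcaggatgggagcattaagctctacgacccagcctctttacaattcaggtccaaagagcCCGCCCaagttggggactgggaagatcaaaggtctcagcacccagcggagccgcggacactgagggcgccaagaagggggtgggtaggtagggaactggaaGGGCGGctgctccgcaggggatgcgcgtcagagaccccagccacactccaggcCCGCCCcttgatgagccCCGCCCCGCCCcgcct
Cxcr4, chr1:128592300-128592549, minus strand: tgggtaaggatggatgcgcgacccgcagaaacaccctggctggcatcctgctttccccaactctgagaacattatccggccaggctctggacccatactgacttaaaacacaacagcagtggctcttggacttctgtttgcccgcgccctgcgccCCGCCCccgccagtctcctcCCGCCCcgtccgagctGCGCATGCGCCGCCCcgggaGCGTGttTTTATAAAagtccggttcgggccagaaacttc
Ackr3, chr1:90203730-90203979, plus strand: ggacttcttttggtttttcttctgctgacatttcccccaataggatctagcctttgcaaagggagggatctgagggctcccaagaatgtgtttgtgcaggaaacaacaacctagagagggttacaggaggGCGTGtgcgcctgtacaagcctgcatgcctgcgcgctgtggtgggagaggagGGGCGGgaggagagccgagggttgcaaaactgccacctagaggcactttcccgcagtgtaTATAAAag
The *Cxcl12* stretch held 5 GC boxes, the last 2 of which share 1 base, and no other match. The *Cxcr4* stretch held GCATGCGC on both strands, in matches that overlap each other 59 to 50 bases before the start, and GCGTG 39 to 35 bases before it. It also held 3 GC boxes, the last of which shares 1 base with the second GCATGCGC match, and TATAAA on both strands 32 to 25 bases before the start. The *Ackr3* stretch held 1 GCGTG match 120 to 116 bases before the start, 1 GC box and 1 TATAAA match. ACGTG was in none of the 3. Among 32851 mouse promoter stretches of the same length, 16.6% held ACGTG, 28.2% GCGTG, 2.26% GCATGCGC, 32.7% GGGCGG and 12.4% TATAAA. A match is a run of letters and not a measured binding site.

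The ligand gene *Cxcl12* had its highest mean in WT traction scars, but no difference passed the test. Its level in the 3 WT sham scars was 233, 179 and 132 CPM, and in the 3 WT traction scars it was 452, 343 and 225 CPM. The highest sham scar was above the lowest traction scar, so that these groups overlapped by 1 library on each side. Group means were 181 ± 50.3 and 340 ± 113 CPM (SD, n = 3 each). The log2 fold change was 0.91 (SE 0.29), with an adjusted p of 0.0642 in edgeR's test (95% interval 0.25 to 1.56 before adjustment). Without replicate 1 of the WT traction group the log2 fold change was 0.63 (adjusted p = 0.187 in edgeR).

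In lacZ scars *Cxcl12* stood at 162, 127 and 128 CPM under sham and at 140, 224 and 192 CPM under traction. The lowest traction scar lay inside the sham range and the other two lay above it. The means were 139 ± 19.8 and 185 ± 42.6 CPM (SD, n = 3 each), a log2 fold change of 0.42 (SE 0.28, adjusted p = 0.689 in edgeR). Between genotypes, *Cxcl12* differed by a log2 fold change of -0.38 in sham scars (lacZ against WT, SE 0.28, adjusted p = 0.588 in edgeR) and of -0.88 in traction scars (SE 0.28, adjusted p = 0.109). In the traction scars every lacZ library was below every WT library, but the nearest of the 2 groups, at 224.3 and 224.9 CPM, were all but equal. Over all genes tested, 13.7% were lower in every lacZ traction library than in every WT traction library. The traction effect of the 2 genotypes differed by -0.49 on the log2 scale (SE 0.40, adjusted p = 0.702 in edgeR). The order of the group means was WT traction, lacZ traction, WT sham and lacZ sham, and the first and second groups did not overlap, by the narrow margin given above, while the other neighbours in this order overlapped.

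*Cxcr4*, the signalling receptor, had the pattern for which the set was chosen, and its values follow as a description. In WT sham scars it stood at 13.7, 16.1 and 22.7 CPM, and in WT traction scars at 125, 97.4 and 44.1 CPM. The lowest traction scar was above the highest sham scar. The means were 17.5 ± 4.66 and 89.0 ± 41.3 CPM (SD, n = 3 each), a fold of 5.09 (log2 2.35, SE 0.33). Of all genes tested, 17.7% were higher in every WT traction library than in every WT sham library.

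Counts of *Cxcr4* ran from 540 to 5271 a library, so counting error is small beside the spread between mice in the WT groups. In the lacZ groups the coefficient of variation was only 7.75% under sham and 10.5% under traction, so counting error weighs more there. The spread between mice was largest in the WT traction group, where the coefficient of variation was 46.4% and replicate 1 was highest. Without replicate 1 the log2 difference between WT traction and WT sham was 2.00, and over all libraries left out in turn it lay between 2.00 and 2.68.

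In lacZ scars *Cxcr4* was near the WT sham level under both treatments. It stood at 12.9, 13.2 and 14.8 CPM under sham and at 15.6, 15.2 and 18.4 CPM under traction. The traction scars were all above the sham scars, by a gap between the nearest libraries that was smaller than the range within either group. Over all genes tested, 6.77% were higher in every lacZ traction library than in every lacZ sham library. The means were 13.6 ± 1.05 and 16.4 ± 1.72 CPM (SD, n = 3 each), a log2 fold change of 0.27 (SE 0.31). Between genotypes the log2 difference was -0.36 (lacZ against WT, SE 0.31) in sham scars and -2.44 (SE 0.33) in traction scars, where the WT mean was 5.42-fold the lacZ value in the fit. The traction effects of the genotypes differed by -2.08 on the log2 scale (SE 0.45), and by -1.70 without replicate 1 of WT traction. The traction comparison in WT and the genotype comparison in traction scars share the 3 WT traction libraries.

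**Figure D1:**
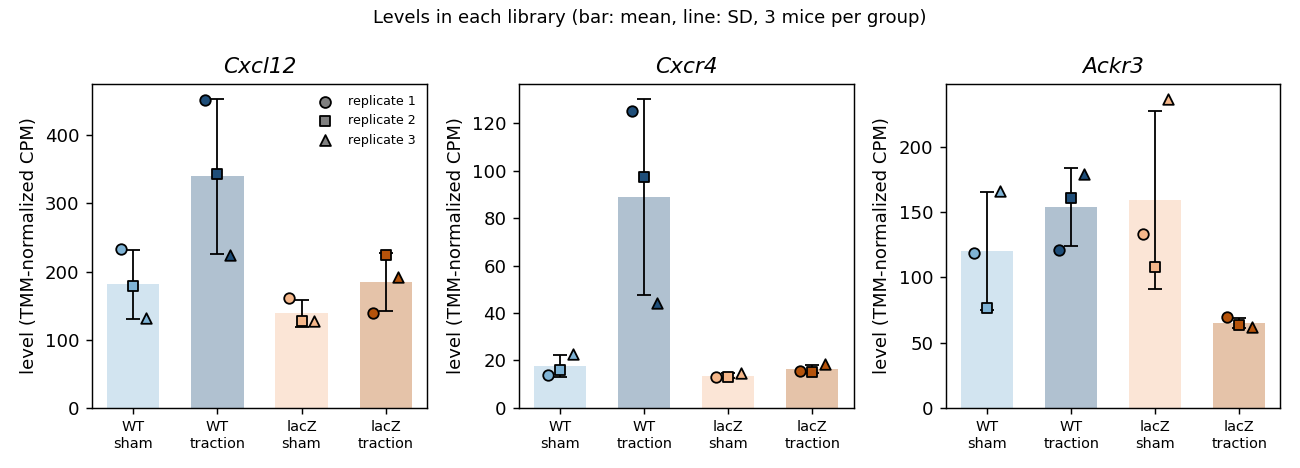
Levels of Cxcl12, Cxcr4 and Ackr3 in TMM-normalized CPM (y axis, from 0) in the 4 groups (x axis), with 1 point for each library, bars for the mean and lines for the SD of 3 mice. The WT traction libraries lie at 44.1 to 125 CPM for Cxcr4 against at most 22.7 CPM elsewhere, while the lacZ traction libraries lie at 62.2 to 69.8 CPM for Ackr3, below all others.

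*Ackr3*, the scavenging receptor, varied in another way, with its lowest levels in the lacZ traction group. In WT scars its level was 118, 76.3 and 167 CPM under sham and 121, 161 and 180 CPM under traction. These groups overlapped over most of their range. The means were 120 ± 45.2 and 154 ± 29.8 CPM (SD, n = 3 each), and the log2 fold change was 0.36 (SE 0.32, adjusted p = 0.474 in edgeR).

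In lacZ scars *Ackr3* stood at 133, 108 and 237 CPM under sham and at 69.8, 63.6 and 62.2 CPM under traction. Every traction scar was below every sham scar of either genotype, and the 3 were close to each other. The means were 159 ± 68.3 and 65.2 ± 4.06 CPM (SD, n = 3 each). The log2 fold change with traction was -1.29 (SE 0.32), with an unadjusted p of 0.00209 in edgeR that ranked 37 among 18853 genes and an adjusted p of 0.598, which did not pass. No gene passed in that comparison (0%), and 0.598 was the smallest adjusted p there. In all, 1530 genes had an unadjusted p under 0.05, and DESeq2 called 28 genes and limma-voom 435. *Ackr3* was among those called by limma-voom (log2 fold change -1.49, adjusted p = 0.0445) and not among those called by DESeq2. In the same comparison 6.16% of all genes were lower in every traction library than in every sham library.

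Between genotypes, *Ackr3* differed by a log2 fold change of 0.40 in sham scars (lacZ against WT, SE 0.32, adjusted p = 0.614 in edgeR). This value rested on replicate 3 of the lacZ sham group, at 237 CPM, and was -0.0091 without it. In traction scars the difference was -1.24 (SE 0.32, adjusted p = 0.0951 in edgeR), with no overlap between the groups. Over all genes tested, 13.7% were likewise lower in every lacZ traction library than in every WT traction library. The adjusted p of this difference ran from 0.00829 with DESeq2 to 0.295 over the other settings tried. The traction effects of the genotypes differed by -1.65 on the log2 scale (SE 0.45, unadjusted p = 0.00388 and adjusted p = 0.548 in edgeR). No gene passed for this difference of effects (0%), with 1680 genes at an unadjusted p under 0.05, 69 calls in DESeq2 and 0 in limma-voom. The order of the group means was lacZ sham, WT traction, WT sham and lacZ traction, and the first 3 did not differ beyond their spread.

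**Figure D2:**
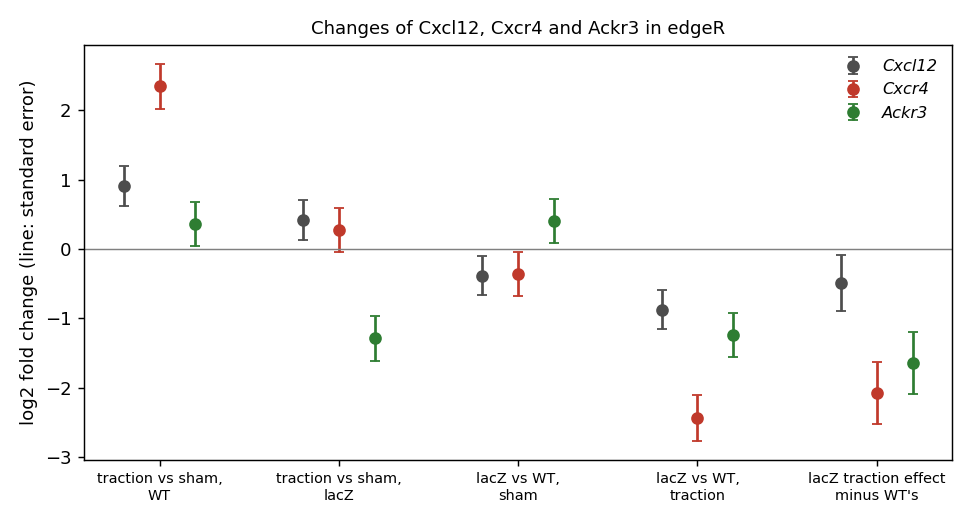
The log2 fold change of Cxcl12, Cxcr4 and Ackr3 in edgeR (y axis) in each of 5 comparisons (x axis), with points for the estimate and lines for 1 standard error on each side. Cxcr4 stands at 2.35 with traction in WT and 0.27 in lacZ, whereas Ackr3 stands at 0.36 in WT and -1.29 in lacZ.

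Levels of the 3 genes were compared with each other as CPM per kb of exon. The exon length of the gene, with all its transcripts joined, was 8.176 kb for *Cxcl12*, 1.808 kb for *Cxcr4* and 3.348 kb for *Ackr3*. *Ackr3* had the highest level per kb in WT sham scars, at 35.98 against 22.2 for *Cxcl12* and 9.67 for *Cxcr4*. In WT traction scars the 3 means per kb were 46.0 for *Ackr3*, 49.2 for *Cxcr4* and 41.6 for *Cxcl12*, but the order differed between libraries. In replicate 1 the levels per kb were 36.3 for *Ackr3*, 69.4 for *Cxcr4* and 55.3 for *Cxcl12*, in replicate 2 they were 48.1, 53.9 and 42.0, and in replicate 3 they were 53.7, 24.4 and 27.5. In lacZ traction scars they were 19.5 for *Ackr3*, 9.08 for *Cxcr4* and 22.7 for *Cxcl12*.

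The ratio of *Cxcr4* to *Ackr3* per kb was above every sham library in all 6 traction libraries, in both genotypes. Within WT it was 0.214, 0.390 and 0.252 under sham and 1.91, 1.12 and 0.454 under traction. Within lacZ it was 0.179, 0.226 and 0.116 under sham and 0.415, 0.443 and 0.547 under traction. The highest sham library and the lowest traction library were thus at 0.390 and 0.415. Means were 0.285 ± 0.0926 and 1.16 ± 0.730 in WT, and 0.173 ± 0.0551 and 0.468 ± 0.0696 in lacZ (SD, n = 3 each). In WT scars the ratio went with a higher *Cxcr4* level, and in lacZ scars with a lower *Ackr3* level. The set was chosen for the rise of *Cxcr4* with traction, so a higher ratio in WT traction follows in part from that choice. No test was run on this ratio.

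The ratio of the ligand to its scavenging receptor, *Cxcl12* to *Ackr3* per kb, was 0.805, 0.958 and 0.325 in WT sham scars and 1.52, 0.872 and 0.512 in WT traction scars. In lacZ it was 0.496, 0.481 and 0.221 under sham and 0.820, 1.45 and 1.26 under traction. The WT groups overlapped and the lacZ groups did not. The mean in lacZ traction scars was 1.18 ± 0.321 (SD, n = 3), and no test was run. With the length of the longest transcript in place of all exon bases this mean was 1.56, since the joined exons of *Cxcl12* are longer than its longest transcript of 5.627 kb.

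**Figure D3:**
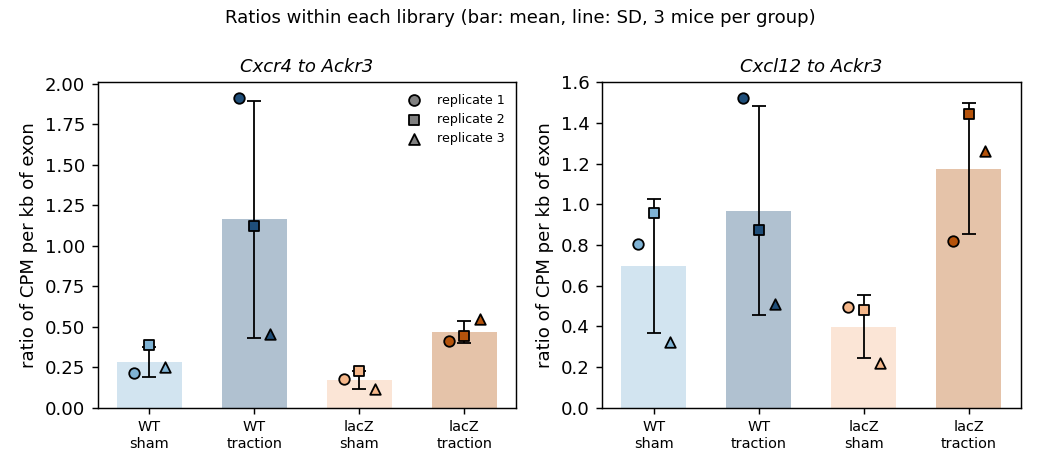
Ratios of Cxcr4 to Ackr3 (left) and of Cxcl12 to Ackr3 (right) in CPM per kb of exon (y axes, from 0) by group, with 1 point for each library, bars for the mean and lines for the SD of 3 mice. On the left the 6 traction libraries lie at 0.415 or more and the 6 sham libraries at 0.390 or less.

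Markers of several cell types that are known to carry CXCR4 went with its level only in part. The marker lists, too, were chosen with earlier results of these data known. The neutrophil, monocyte and macrophage, and endothelial tip cell sums had their highest median in WT traction scars. The T lymphocyte sum had its lowest median there. The neutrophil markers summed to 62.6 to 98.1 CPM in WT sham, 300 to 6990 in WT traction, 173 to 192 in lacZ sham and 251 to 533 in lacZ traction, and *Ly6g* was at 0 in all WT sham libraries. Their sums were higher in lacZ sham than in WT sham, where mean *Cxcr4* was 13.6 and 17.5 CPM. Replicate 1 of lacZ traction, at 533 CPM, was above replicate 3 of WT traction, at 300 CPM. *Cxcr4* stood at 15.6 and 44.1 CPM in these libraries. Of the 8 neutrophil markers tested, 5 passed as higher with traction in WT (*S100a8*, *S100a9*, *Cxcr2*, *Csf3r* and *Trem1*), against 5.61% of all genes. Without replicate 1 only *Csf3r* and *Trem1* of the 8 passed, when 1.86% of all genes passed in either direction. The 8 monocyte and macrophage markers summed to 2163 to 3653 CPM in WT sham, 3428 to 5354 in WT traction, 1702 to 3522 in lacZ sham and 2064 to 3808 in lacZ traction, with 1 of 8 (*Cd14*) higher past the test in WT and 0 without replicate 1.

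The 7 T lymphocyte markers listed in the files summed to 24.1 to 123 CPM in WT traction, and to 28.5 to 59.2 CPM elsewhere. None passed with traction in WT in edgeR (0 with an unadjusted p under 0.05), but without replicate 1 *Cd3g* passed as lower, and the WT traction libraries stood at 123, 30.8 and 24.1 CPM, the last being the lowest of the 12. The B lymphocyte markers were near 0 throughout, at 1.53 to 4.12 CPM summed over 5 markers. The 6 mast cell markers summed to 176 to 265 CPM in WT sham, 125 to 262 in WT traction, 142 to 253 in lacZ sham and 201 to 301 in lacZ traction. With traction in WT 4 of them were lower and 2 higher. *Ms4a2* passed as lower, against 3.54% of all genes, but not without replicate 1. The 6 markers of endothelial tip cells summed to 72.2 to 115 CPM in WT sham, 176 to 230 in WT traction, 71.3 to 83.0 in lacZ sham and 90.6 to 163 in lacZ traction. Of these, *Apln*, *Angpt2*, *Dll4* and *Pgf* passed as higher with traction in WT, against 5.61% of all genes. All but *Angpt2* did so without replicate 1, when 1.86% of all genes passed in either direction. The part of these cell types in the *Cxcr4* levels was not tested.

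**Figure D4:**
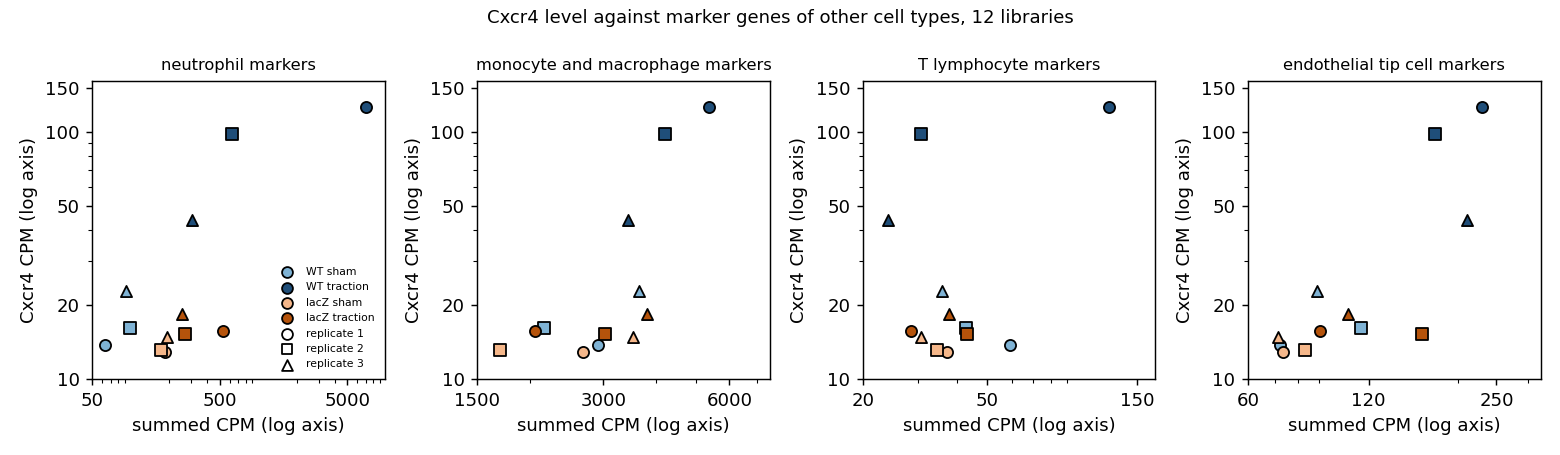
The Cxcr4 level (y axes, CPM, log) against the summed level of the markers of 4 cell types (x axes, CPM, log) in the 12 libraries, with colour for the group and shape for the replicate number. The WT traction libraries hold the 3 highest Cxcr4 levels in every panel, and the neutrophil markers reach 6990 CPM in 1 of them.

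Fibroblast and vessel markers, like *Cxcl12*, had their highest median in the WT traction group. Between replicates, the summed fibroblast, blood endothelium and pericyte markers ran in the opposite order to *Cxcl12* within both WT groups. Within both lacZ groups they ran in the same order as *Cxcl12*. In WT traction replicates 1 to 3 the fibroblast sum was 44265, 72447 and 111012 CPM, beside 452, 343 and 225 CPM for *Cxcl12*. The 8 fibroblast markers summed to 26196 to 41466 CPM in WT sham, 44265 to 111012 in WT traction, 17676 to 30000.1 in lacZ sham and 22553 to 49826 in lacZ traction, and 2 of the 8 passed as higher with traction in WT and 0 without replicate 1. The 8 markers of blood endothelium summed to 360 to 527 CPM in WT sham, 877 to 1039 in WT traction, 280 to 482 in lacZ sham and 428 to 706 in lacZ traction, with 5 of 8 higher past the test in WT and 3 without replicate 1. The 6 pericyte markers summed to 324 to 569 CPM, 552 to 985 CPM, 314 to 477 CPM and 467 to 690 CPM in the same order of groups. Of all genes, 5.61% passed as higher with traction in WT, and 1.86% passed in either direction without replicate 1. None of the fibroblast, endothelium and pericyte markers was at 0 in a group. Their part in the *Cxcl12* levels was not tested.

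Markers of other tissue types were compared between the groups as well, beside all 3 genes. The 6 hair follicle markers summed to 7450 to 14763 CPM in WT sham, 2351 to 4018 in WT traction, 1953 to 15276 in lacZ sham and 4497 to 9139 in lacZ traction. All 6 had a negative log2 fold change with traction in WT (median -1.79). Of these, 1 passed as lower, against 3.54% of all genes. The 6 skeletal muscle markers had a median log2 fold change of -2.80 with traction in WT and -0.41 in lacZ. In edgeR 0 passed in either genotype (6 and 0 with an unadjusted p under 0.05, against 31.4% and 8.12% of all genes). Without replicate 1 of WT traction *Ckm* and *Tnnt3* passed as lower in WT, and 0 hair follicle markers passed, when 1.86% of all genes passed in either direction. Beside the low *Ackr3* level of lacZ traction, the summed level in lacZ sham and lacZ traction was 15166 to 18410 and 13421 to 40364 CPM for 6 keratinocyte markers, with the highest value in replicate 1 of lacZ traction, and 273 to 2560 and 154 to 1560 CPM for 6 adipocyte markers. The keratinocyte and adipocyte sums overlapped between the lacZ groups. The part of these tissue types in the levels of the 3 genes was not tested.

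The genes most like each member over the 12 libraries were named by Pearson's r of log2 CPM among 13643 genes. Those most like *Cxcr4* were the neutrophil-attracting chemokine *Cxcl1* (r = 0.9749), the inducible nitric oxide synthase *Nos2* (0.965), the Toll-like receptor adaptor *Tirap* (0.959), *Preb* (0.953) and *Ccdc126* (0.952). *Cxcl1* stood at 2.03 ± 1.55 CPM in WT sham and 39.9 ± 25.4 CPM in WT traction, and at 1.64 ± 0.196 and 2.03 ± 0.593 CPM in the lacZ groups (SD, n = 3 each). Those most like *Cxcl12* were *Brpf1* (r = 0.949), the insulin receptor substrate *Irs2* (0.949), *Sorl1* (0.948), *Khnyn* (0.945) and *Card6* (0.943). Those most like *Ackr3* were *Ugdh* (r = 0.893), which makes the sugar precursor of hyaluronan, *Gnpnat1* (0.874), *Pla1a* (0.857), *Rras2* (0.847) and *Nmt2* (0.838). *Ugdh* stood at 107 ± 30.5 CPM in WT sham, 126 ± 21.9 in WT traction, 132 ± 51.9 in lacZ sham and 83.7 ± 15.8 in lacZ traction (SD, n = 3 each). Among the members, r was 0.823 between *Cxcl12* and *Cxcr4*, 0.311 between *Cxcr4* and *Ackr3* and -0.01 between *Cxcl12* and *Ackr3*. The points of each r are 12 libraries in 4 groups that differ in treatment and genotype, so these values describe the groups as much as the mice.

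Around the 3 genes, 59 genes of the pathway were listed by role, of which 58 were tested (*Elane* stayed under the filter, with at most 23 counts in a library). The lists were chosen with earlier results of these data known, so the shares of all genes beside them give no test of the lists. With traction in WT scars 15 of the 58 passed as higher, against 5.61% of all genes, and 1 passed as lower, against 3.54% of all genes. Together they were 16 genes, against 9.15% of all genes tested. The median log2 fold change was 0.55 for the 58 and -0.01 for all genes. In 29 of the 58, every WT traction library was above every WT sham library, against 17.7% of all genes. The count of 16 depended on the libraries used. It was 27 with DESeq2, which called 21.5% of all genes. It was 4 without replicate 1 of WT traction (*Mmp9*, *Mmp13*, *Mmp14* and *Foxc1*), when 1.86% of all genes passed. It was 0 without replicate 1 or without replicate 2 of WT sham, where no gene of all those tested passed either.

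Of 7 enzymes tested that cut CXCL12, 4 matrix metalloproteinases passed as higher with traction in WT, against 5.61% of all genes. *Mmp13*, a collagenase, rose from 20.3 ± 13.0 to 741 ± 1030 CPM (log2 fold change 5.19, SE 1.06, adjusted p = 0.0300), with the 3 traction scars at 1929, 154 and 138 CPM, and its log2 fold change was 2.83 without replicate 1 (adjusted p = 0.0433). *Mmp9*, a gelatinase of leukocytes, rose from 19.4 ± 6.47 to 349 ± 353 CPM (log2 fold change 4.17, SE 0.71, adjusted p = 0.0252), with the traction scars at 757, 141 and 150 CPM, and it was 2.89 without replicate 1 (adjusted p = 0.0344). In both genes replicate 1 was far above the others, which were still above all sham scars. *Mmp14*, a membrane-bound collagenase, rose by 1.33 (SE 0.26, adjusted p = 0.0278) and *Mmp2*, the gelatinase it activates, by 1.12 (SE 0.29, adjusted p = 0.0416), all in edgeR. Without replicate 1 *Mmp2* had a log2 fold change of 1.24 and did not pass (adjusted p = 0.0557). In the lacZ traction scars the means were 32.5 ± 14.4 CPM for *Mmp13*, 21.7 ± 4.92 for *Mmp9*, 540 ± 129 for *Mmp14* and 647 ± 164 for *Mmp2*.

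*Dpp4*, the peptidase that removes the first residues of CXCL12, did not pass and is named after its values were seen. Its level was 197 ± 66.0 CPM in WT sham and 82.7 ± 45.2 CPM in WT traction, and 205 ± 60.6 and 87.1 ± 28.4 CPM in lacZ sham and lacZ traction (SD, n = 3 each). Its log2 fold change with traction in WT was -1.25 (adjusted p = 0.0937 in edgeR).

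Of 18 signal transducers below the receptor, 5 passed as higher with traction in WT, against 5.61% of all genes. *Gnai2*, the inhibitory G protein subunit through which CXCR4 signals in leukocytes, rose from 204 ± 29.6 to 487 ± 84.5 CPM (log2 fold change 1.25, SE 0.27, adjusted p = 0.0311 in edgeR). *Vav1*, an exchange factor of blood cells, rose by 1.60 (SE 0.39, adjusted p = 0.0368) and *Stat3*, a transcription factor activated by cytokine receptors, by 1.21 (SE 0.33, adjusted p = 0.0467). *Akt1* and *Gnb1* also passed. Without replicate 1 of WT traction none of the 5 passed, and the log2 fold changes were 1.09 for *Gnai2* (adjusted p = 0.0600), 1.09 for *Vav1* (adjusted p = 0.0847) and 0.68 for *Stat3* (adjusted p = 0.122 in edgeR). *Gnai3*, named for its high counts, stood at 281.8 CPM against 285.4 CPM, with an adjusted p of 0.962.

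Of 14 genes of receptor desensitisation and traffic, 2 passed as higher with traction in WT, against 5.61% of all genes. They were *Arrb2*, an arrestin that binds both receptors, and *Adrbk1*, the receptor kinase also called Grk2. Neither passed without replicate 1 of WT traction. Named for their high counts were *Vps4b*, of the endosomal sorting machinery, and *Itch*, the ligase that marks CXCR4 for degradation. Their log2 fold changes were 0.07 (adjusted p = 0.859 in edgeR) and 0.12 (adjusted p = 0.585).

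Of 6 transcription factors, both hypoxia-inducible factors passed as higher, against 5.61% of all genes, and *Foxc1* passed as lower, against 3.54%. *Hif1a* rose from 239 ± 66.2 to 683 ± 335 CPM (log2 fold change 1.51, SE 0.34, adjusted p = 0.0329) and *Epas1* from 85.8 ± 11.0 to 288 ± 168 CPM (1.75, SE 0.44, adjusted p = 0.0391 in edgeR). Without replicate 1 of WT traction these were 1.03 (adjusted p = 0.0619) and 1.14 (adjusted p = 0.0923), and neither passed. *Foxc1*, which is known to maintain *Cxcl12*-rich stromal cells of the marrow, fell from 35.3 ± 8.28 to 14.6 ± 2.78 CPM (log2 fold change -1.27, SE 0.22, adjusted p = 0.0252). In lacZ scars *Foxc1* stood at 25.4 ± 2.08 CPM under sham and 25.6 ± 6.10 CPM under traction.

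Of 8 related chemokine receptors, *Ccrl2* and *Cxcr5* passed as higher, against 5.61% of all genes. In both, replicate 1 of WT traction was far above the rest. *Ccrl2*, an atypical receptor that binds chemerin, stood at 293, 4.70 and 10.1 CPM in WT traction and at 3.44 to 4.52 CPM in WT sham (log2 fold change 4.69, adjusted p = 0.0497). Without replicate 1 its log2 fold change was 0.87 and did not pass (adjusted p = 0.308 in edgeR). *Cxcr5*, the receptor of follicular lymphocytes, stood at 4.85, 0.662 and 0.575 CPM against at most 0.262 CPM in sham (log2 fold change 4.01, adjusted p = 0.0346), and 2.29 without replicate 1 (adjusted p = 0.0827). The atypical receptors *Ackr4* and *Ackr1*, named for their counts, did not pass, with log2 fold changes of -1.003 (adjusted p = 0.0996) and 0.27 (adjusted p = 0.719 in edgeR).

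Of 5 other ligands, none passed in edgeR (0), with 2 at an unadjusted p under 0.05, against 31.4% of all genes. *Hmgb1*, a nuclear protein that binds CXCL12 once released, stood at 226 ± 39.1 and 181 ± 25.1 CPM in WT sham and WT traction (log2 fold change -0.31, adjusted p = 0.315). *Cxcl14*, a chemokine of skin that is known to bind CXCR4, stood at 107 ± 23.2 and 163 ± 180 CPM (0.61, adjusted p = 0.532), and its log2 fold change was -0.86 without replicate 1 of WT traction and -0.28 in limma-voom.

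**Figure D5:**
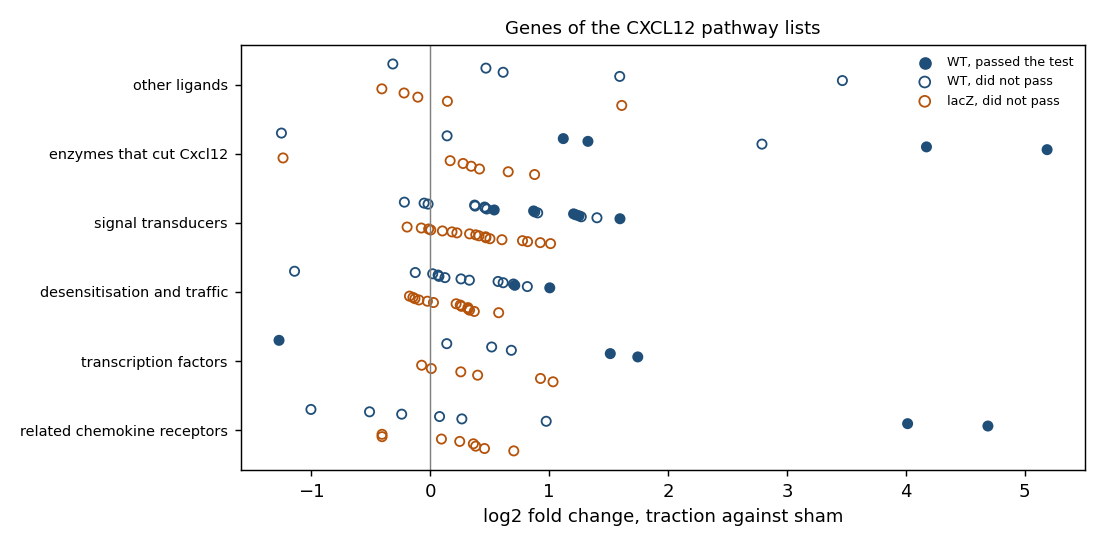
The log2 fold change with traction (x axis) of the 58 pathway genes tested, in 6 lists by role (y axis), with 1 circle for each gene in WT (blue) and in lacZ (orange), filled where the gene passed the test. The 16 filled circles, 15 to the right of 0 and 1 to the left, are all of WT.

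In the other comparisons none of the 58 genes passed in edgeR. With traction in lacZ scars 12 had an unadjusted p under 0.05, against 8.12% of all genes. DESeq2 called 0 (against 0.149% of all genes) and limma-voom 4 (against 2.31%). The median log2 fold change was 0.27 against -0.01 for all genes. All traction libraries were above all sham libraries for 3 of the 58 (against 6.77% of all genes) and below them for 2 (against 6.16%), shares no higher than those of all genes. In sham scars the median difference between genotypes was -0.16, against -0.01 for all genes, with 3 genes at an unadjusted p under 0.05, against 11.7% of all genes. There were 0 calls by DESeq2 or limma-voom, where 0.0106% of all genes passed in edgeR. In traction scars the median was -0.51 (lacZ against WT), against 0.01 for all genes. There 48 of the 58 were lower in lacZ, 21 of them with no overlap between groups (against 13.7% of all genes). None passed in edgeR, where 0.106% of all genes did. There 31 of the 58 had an unadjusted p under 0.05, against 26.1% of all genes, and DESeq2 called 15, against 12.4% of all genes, and limma-voom 0. For the difference of the traction effects the median was -0.28, against -0.002 for all genes, with 8 genes at an unadjusted p under 0.05, against 8.91% of all genes. There was 1 call in DESeq2 (against 0.366% of all genes) and 0 in limma-voom.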

How the data were processed

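RNA-seq was analysed for 12 mouse scars, 3 in each of 4 groups named in the sample labels. The authors made stranded poly(A) libraries, sequenced them as 150-bp paired reads and, per the submitters' processing notes, used fastp 0.20.0, HISAT2 2.1.0 with GRCm38 and featureCounts 2.0.0. They deposited whole-number counts of each gene, not normalized. Which annotation and strand setting the counting used is not given in the sources used here. GENCODE vM21 lists 0 genes that overlap a member.

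The counts were filtered with filterByExpr, scaled by TMM and fitted in edgeR 4.0.16 (R 4.3.3) by robust quasi-likelihood, with 1 coefficient for each of the 4 groups and 8 residual degrees of freedom. The biological coefficient of variation was 34.2%. Tests were two-sided, with Benjamini-Hochberg adjustment over 18853 genes and a threshold of 0.05. Standard errors follow from the fitted model. Log2 CPM for correlations used a prior count of 2, with genes of a mean log2 CPM of at least 1. The code was tested on simulated data. Figures were drawn with matplotlib 3.10.9 in Python 3.11.15.

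The members and all lists were chosen with earlier results of these data known. Named were the 3 members, *Cd248*, pathway genes that passed (the 12 largest of a comparison), the 2 genes of each list with the highest mean log2 CPM and the 5 genes most like each member. Other genes named were picked after their values were seen.

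Alternative settings changed 1 choice at a time. They were another filter (any gene with 1 count or more, or genes with 10 counts or more in each library), another scaling (the size factors of DESeq2 1.42.0, or the upper quartile), another test (the Wald test of DESeq2, or limma-voom of limma 3.58.1 with weights for the samples), a non-robust fit, a replicate block, a fit of the compared groups alone, and the omission of each library in turn. A second gene length for the ratios, and the marker calls without replicate 1 of WT traction, were added after seeing the data.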

Additional observations from a re-analysis of the deposited data

How the results depend on the processing

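Under the alternatives, 203 of 208 values of *Cxcl12* and *Ackr3* kept their direction and their side of the threshold, and 87 of 104 counts of pathway genes stayed within 1.5 times the count. The 104 values of *Cxcr4*, which had no test, moved by less than 1 SD between replicates. DESeq2 passed *Cxcl12* with traction in WT (log2 fold change 0.93, adjusted p = 0.0195) and the genotype differences in traction scars of *Cxcl12* (-0.89, adjusted p = 0.0378) and *Ackr3* (-1.25, adjusted p = 0.00829), and limma-voom passed *Ackr3* with traction in lacZ (-1.49, adjusted p = 0.0445). Leaving out 1 library, the genotype difference of *Ackr3* in sham scars ran from -0.0091 (without replicate 3 of lacZ sham) to 0.73, and adjusted p-values of the members over all alternatives ran from 0.0195 to 0.187 for *Cxcl12* with traction in WT, from 0.0445 to 1.00 for *Ackr3* with traction in lacZ and from 0.105 to 0.825 for the difference of its traction effects.

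The 16 pathway genes that passed with traction in WT became 10 with all genes of at least 1 count, 27 with DESeq2, 0 with only the 6 libraries compared, and 0 to 22 without 1 library. They were 0 without replicate 1 or 2 of WT sham, 2 without replicate 3 of lacZ sham, 4 without replicate 1 of WT traction, 7 without replicate 3 of WT sham, 10 without replicate 1 or 2 of lacZ sham and 9 without replicate 3 of lacZ traction. Of all genes, 1725 passed in the main fit, 1011 with genes of at least 1 count, 4047 with DESeq2 and 0 with only the 6 libraries compared. Without 1 library, 0 to 2861 of all genes passed. For traction in lacZ the count of pathway genes became 4 in limma-voom (2.31% of all genes) and 0 to 1 without 1 library. For the genotypes in traction scars it was 15 in DESeq2 (12.4% of all genes) and 0 to 9 without 1 library. The 9 were without replicate 2 of WT traction, where 1421 of all genes passed. For the difference of effects, which needs all 4 groups and was not run on fewer, it was 1 in DESeq2 (0.366% of all genes). The cause of these shifts was not tested, except that leaving out libraries leaves fewer samples.

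Same-numbered mice of different groups are different mice, and the correlations of their deviations were not all above 0.1 in any comparison. Between the genotypes in sham scars they were 0.21, 0.25 and 0.03 for replicates 1, 2 and 3. There each library was most like the same-numbered library of the other genotype in its deviations. In each other comparison some library was most like a library with another number. Whether the numbers pair the libraries was not tested, since a cut at 0.1 cannot exclude it. With the replicate number as a block, 8 pathway genes passed with traction in WT, and no call on *Cxcl12* or *Ackr3* changed.

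With traction in WT, some named genes that had not passed changed sign between settings. *Cxcl14*, at 0.61 in the main fit, was -0.28 in limma-voom and -0.86 (without replicate 1 of WT traction) to 1.07 without 1 library. Its WT traction libraries stood at 371, 73.3 and 45.6 CPM, and its WT sham libraries at 113, 126 and 81.1 CPM. *Gnai3* was -0.15 to 0.10 without 1 library, with 0.06 without replicate 3 of WT sham. *Vps4b* was -0.052 with upper quartile scaling, -0.013 in limma-voom and -0.19 to 0.28 without 1 library, and *Ackr1* was -0.059 in limma-voom and -0.43 to 0.55 without 1 library. Upper quartile scaling moved the median of all genes to -0.12 for traction in WT and 0.14 for the genotypes in traction scars. With 3 mice a group, a difference that did not pass is not shown to be absent.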
